A study of Mus musculus with 2 samples.

Results

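The 9 genes described here are chemokines and chemokine receptors that place lymphocytes and myeloid cells in tissue: Cxcl13 with its receptor Cxcr5, Cxcl12 with Cxcr4, Cxcl16 with Cxcr6, and the receptors Cxcr3, Cx3cr1 and Ccr2. They were chosen by symbol for what they do, not by a measured value, and make up 9 of the 32285 genes of the count matrices. Both libraries hold non-parenchymal liver cells that were freed with collagenase from 5-month-old male mice on standard chow and counted on a droplet platform that tags the 3′ end of transcripts. The Hep-ADKTg library comes from mice that overexpress adenosine kinase (Adk), the enzyme that turns adenosine into AMP, in hepatocytes under the albumin promoter, and the Hep-ADKWT library comes from their wild-type counterparts. There was 1 library per genotype, and whether its cells came from a single mouse or from a pool is not given. No difference between the libraries therefore has a replicate check, no test was run, and every interval covers counting error only, at a level of 95%.

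Chemokines are small secreted or membrane-bound proteins that bind G protein-coupled receptors on leukocytes and direct their movement and retention. CXCL13 draws CXCR5-bearing B cells and follicular helper T cells, CXCL12 holds CXCR4-bearing cells in bone marrow and in stromal niches, and CXCL16 on the sinusoidal wall of the liver keeps CXCR6-bearing NKT cells and other resident lymphocytes in the sinusoids. CXCR3 follows the interferon-induced ligands CXCL9 and CXCL10, CX3CR1 binds CX3CL1 on monocytes, macrophages and some cytotoxic cells, and CCR2 with its ligand CCL2 brings monocytes out of the marrow and into tissue.

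The Hep-ADKTg library held 17462 barcodes and 96481752 UMIs (unique molecular identifiers, one for each captured transcript), and the Hep-ADKWT library 15663 barcodes and 97135016 UMIs. After filtering, 14449 and 12482 cells remained, with a median of 2785 and 4807 UMIs per cell, and 58 barcodes were shared by kept cells of both libraries. Hepatocyte-like cells numbered 4268 in Hep-ADKTg and 206 in Hep-ADKWT, and hepatocyte RNA was estimated at 3.20% to 22.5% of the UMIs of the other classes compared in Hep-ADKTg, against 0.705% to 3.31% in Hep-ADKWT. Adk stood at 530 CPM (522–537) in hepatocyte-like cells of Hep-ADKTg and at 463 CPM (440–486) in those of Hep-ADKWT. The sources used here do not give the 3′ end of the transgene's transcript, so this 3′ tag count checks neither label. B cell-like, sinusoidal endothelial-like and T cell-like classes were made of different clusters in the 2 libraries, and the clusters are named beside the values they bear on.

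Levels are UMIs of a gene per 1000000 UMIs of the same class and library (CPM), and each difference is the log2 ratio of Hep-ADKTg over Hep-ADKWT. A gene counts as past 2-fold where it has at least 50 UMIs over both libraries in the class and its log2 ratio is beyond 1 in either direction. Cxcl13 came almost wholly from the mesothelial-like class in both libraries, mostly from a few of its cells, in which Msln was not found. Sinusoidal endothelial-like cells held the largest share of the Cxcl16 UMIs, B cell-like cells that of Cxcr5 and Cxcr4, and T, NK and innate lymphoid-like cells that of Cxcr6 and Cxcr3, again in both libraries. For Cxcl12 the leading class was hepatocyte-like cells in Hep-ADKTg, with 47.4% of the UMIs, and fibroblast or stellate-like cells in Hep-ADKWT, with 46.8%. For Ccr2 it was the monocyte-like class in Hep-ADKTg, with 44.2%, and the T, NK and innate lymphoid-like class in Hep-ADKWT, with 46.1%. For Cx3cr1 it was a macrophage cluster high in C1q genes in Hep-ADKTg, with 39.6%, and the monocyte-like class in Hep-ADKWT, with 46.5%. The monocyte-like class, with 320 and 329 cells, was not monocytes alone. At a finer clustering 142 and 170 cells were named monocyte-like, and 200 and 171 type 1 conventional dendritic-like. The shares above are those of the mixed class, as are later values for monocyte-like cells unless the finer clustering is named.

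**Figure D1:**
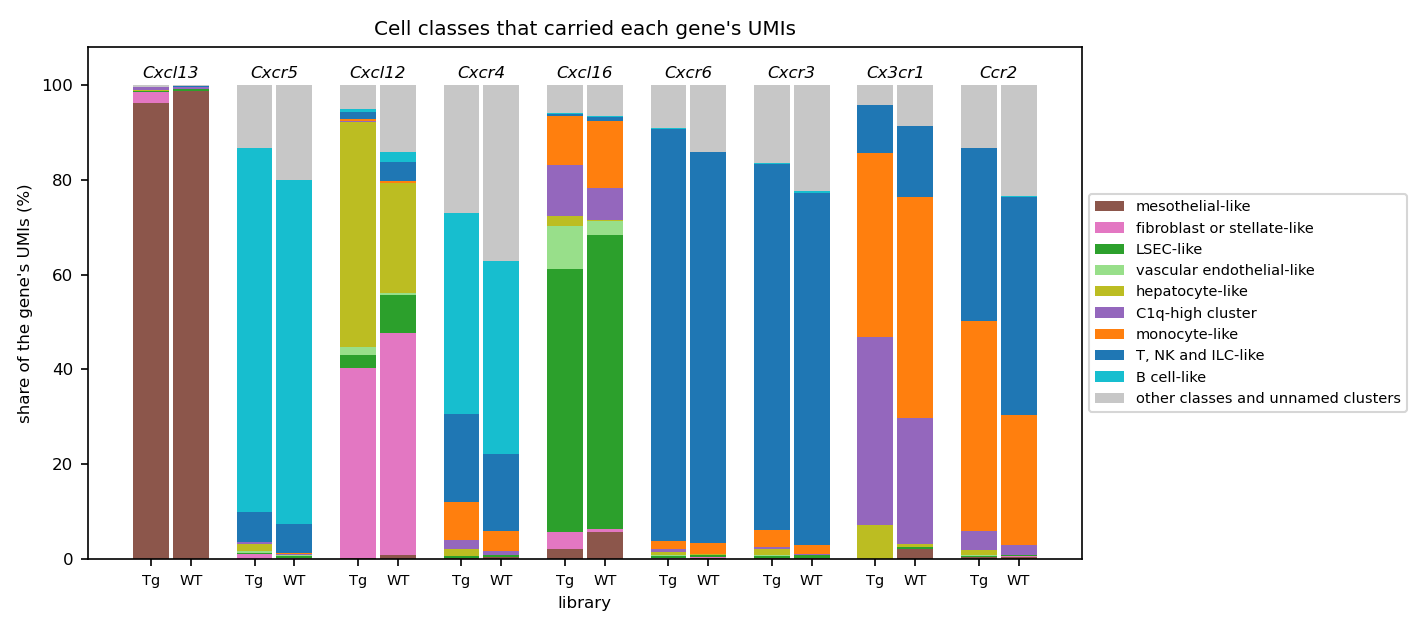
Share of each gene's UMIs (percent, y axis) by cell class, with the Hep-ADKTg library left of the Hep-ADKWT library for each gene (x axis). Mesothelial-like cells held 96.3% and 98.7% of the Cxcl13 UMIs, and hepatocyte-like cells held 47.4% and 23.1% of the Cxcl12 UMIs.

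**Figure D2:**
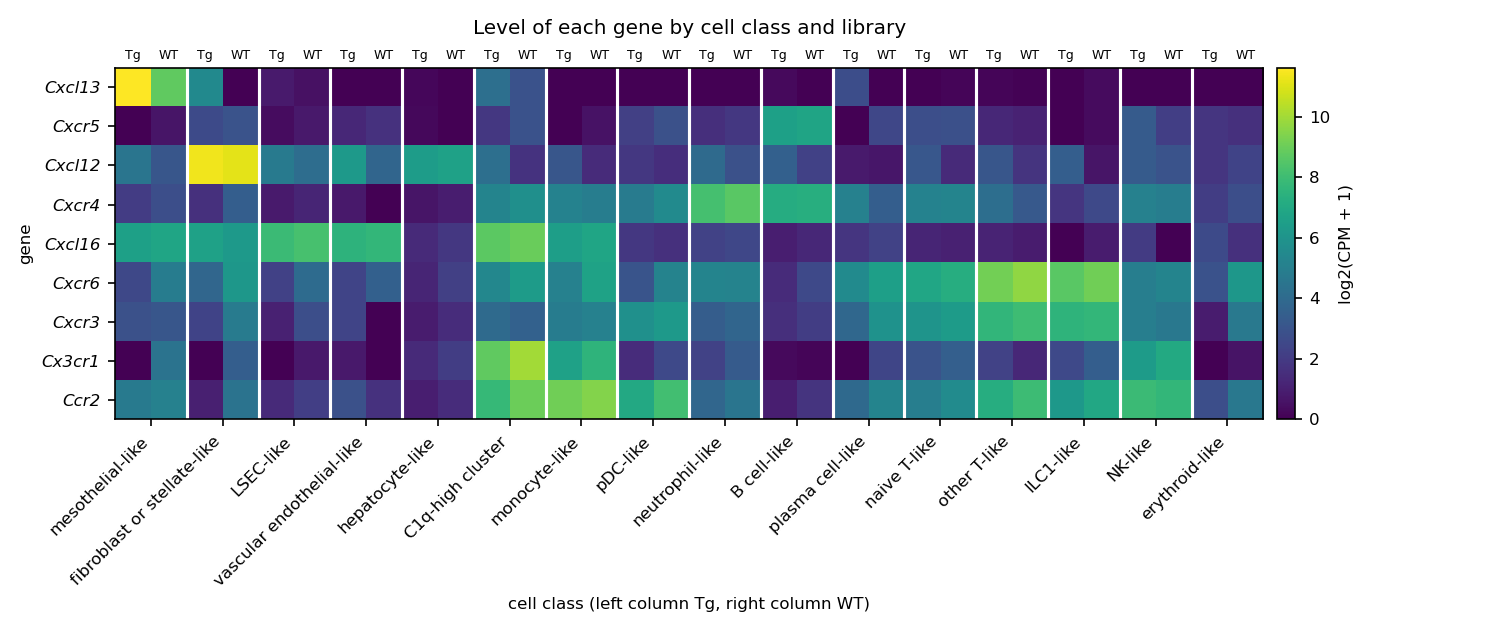
Level of each gene as log2(CPM + 1) (colour) in each cell class (columns, Hep-ADKTg left of Hep-ADKWT) for the 9 genes (y axis). The highest Cxcl13 level is in mesothelial-like cells and the highest Cxcl12 level in fibroblast or stellate-like cells, in both libraries.

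Cxcl13 (ENSMUSG00000023078, chromosome 5, 95956951–95961068, plus strand, GRCm38), the ligand that builds B cell follicles, was higher in the mesothelial-like cells of the Hep-ADKTg library. It stood at 3145 CPM (3009–3287; 1995 UMIs in 88 cells) in Hep-ADKTg, against 434 CPM (404–467; 744 UMIs in 136 cells) in Hep-ADKWT. The intervals do not overlap, and the log2 ratio was 2.86 (2.73 to 2.98), a ratio of 7.24 (6.66–7.89). These intervals treat each UMI as independent and leave out the spread between cells. The 5 highest cells held 93.5% of the UMIs in Hep-ADKTg and 92.3% in Hep-ADKWT, so the ratio rests on few cells. Of 4 members with at least 50 UMIs in this class, Cxcl13 was past 2-fold higher and Cxcr6 past 2-fold lower, where 2.21% of 7027 genes were past 2-fold higher, 2.31% lower and 4.51% in either direction. The summed level of 6 T cell markers in the class was 169 CPM in Hep-ADKTg and 233 CPM in Hep-ADKWT, and its part in the Cxcr6 value was not tested. The class as a whole carried its defining markers in both libraries: Msln, a mesothelial surface protein, stood at 512 and 717 CPM, and Upk3b, a uroplakin, at 1077 and 1271 CPM. The few cells with most of the Cxcl13 UMIs had less of both markers, as given below.

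The Cxcl13 transcripts sat in very few cells. A UMI was found in 10 of 88 cells (11.4%, 5.59–19.9%) in Hep-ADKTg and in 27 of 136 cells (19.9%, 13.5–27.6%) in Hep-ADKWT, at a median of 6015 and 12074 UMIs per cell. B cell-like cells, which should lack this stromal ligand, showed a UMI in 0.0812% and 0% of cells at median depths of 3063 and 3474 UMIs. After every cell was thinned to 1000 UMIs the shares were 11.2% (9 of 80) in Hep-ADKTg and 7.69% (10 of 130) in Hep-ADKWT, and their intervals overlap. The highest cell alone carried 826 UMIs in Hep-ADKTg and 302 in Hep-ADKWT, 41.4% and 40.6% of the class total. The 5 highest cells carried 93.5% and 92.3%, and without the highest cell of each library the levels were 1892 and 264 CPM.

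A cut at 20 Cxcl13 UMIs, set after the values were seen, left 7 of 88 cells in Hep-ADKTg (7.95%, 3.26–15.7%) and 4 of 136 cells in Hep-ADKWT (2.94%, 0.807–7.36%). These cells held 97.7% and 90.3% of the class's Cxcl13 UMIs at 20414 and 5790 CPM, and they were deep, with medians of 14713 and 28449 UMIs per cell. They were picked on Cxcl13, so what follows describes them and tests nothing. Msln had 0 UMIs in them in both libraries, against 603 and 769 CPM in the other cells of the class. Upk3b stood at 31.4 and 276 CPM, against 1262 and 1343 CPM in the others, and Slpi, a secreted protease inhibitor, at 0 and 17.2 CPM, against 3497 and 3886 CPM. Wt1, a transcription factor of mesothelium and stellate cells, did not drop, with 450 and 491 CPM against 419 and 357 CPM in the others. Genes that stood higher in them in both libraries were Fn1 (fibronectin) at 2105 and 1749 CPM against 189 and 188 CPM, Wnt4 (a Wnt ligand) at 953 and 1887 CPM against 113 and 170 CPM, Col15a1 (a basement membrane collagen) at 471 and 724 CPM against 18.6 and 29.4 CPM, and Apln (apelin) at 482 and 862 CPM against 20.4 and 3.13 CPM. The Cxcl13-high cells of both libraries thus had less Msln, Upk3b and Slpi and more of these 4 genes than the rest of the class, and the 4 were picked because they stood higher.

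Outside mesothelial-like cells, Cxcl13 was near 0. Fibroblast or stellate-like cells carried 44 UMIs in 4 of 195 cells in Hep-ADKTg, 20 of them in 1 cell, and 0 UMIs in 59 cells in Hep-ADKWT. With the empty library set at 3 UMIs the ratio was 4.44. That value is not a lower bound, since the UMIs came from so few cells. Over the fibroblast or stellate-like and mesothelial-like clusters joined, Cxcl13 stood at 1267 CPM (1212–1323) in Hep-ADKTg and 370 CPM (344–398) in Hep-ADKWT, a log2 ratio of 1.77 (1.65 to 1.90). In that joined class Cxcl13 and Cxcl12 were past 2-fold higher and Cxcr6 and Ccr2 past 2-fold lower of 5 members measured, where 5.62% of 8821 genes were past 2-fold higher, 4.44% lower and 10.1% in either direction. The joined value moves with the makeup of the class, since mesothelial-like cells were 88 of 283 cells in Hep-ADKTg and 136 of 195 in Hep-ADKWT.

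**Figure D3:**
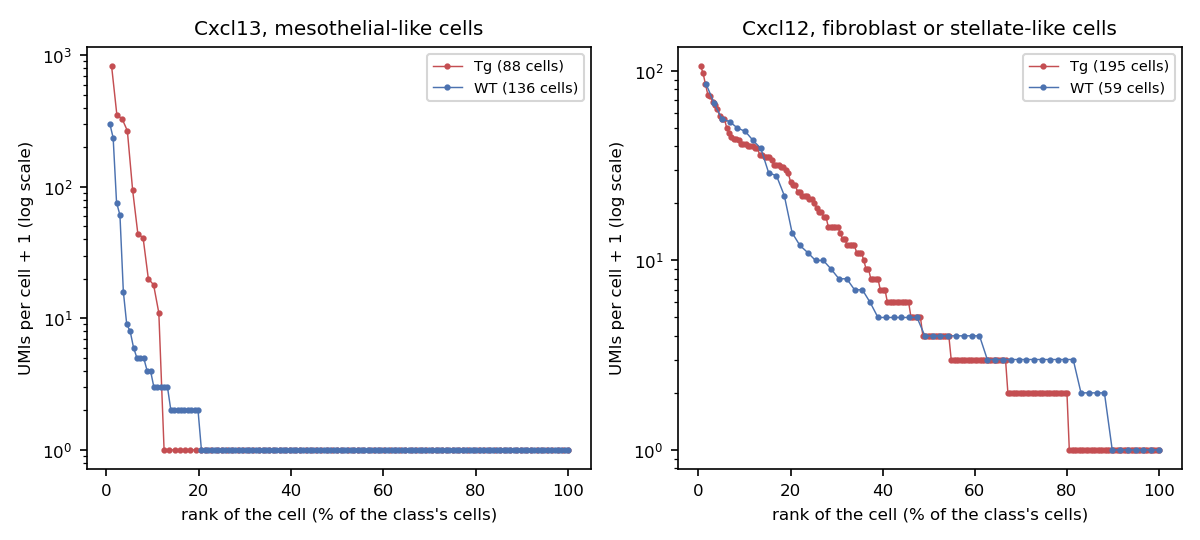
UMIs per cell + 1 (y axis, log scale) against the rank of the cell in percent of the class (x axis), for Cxcl13 in mesothelial-like cells and Cxcl12 in fibroblast or stellate-like cells, with 1 point per cell. Cxcl13 falls to 0 after 10 of 88 cells in Hep-ADKTg and after 27 of 136 cells in Hep-ADKWT, whereas Cxcl12 was found in 80.0% and 88.1% of cells.

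Cxcr5 (ENSMUSG00000047880, chromosome 9, 44511787–44561877, minus strand), the receptor for CXCL13, was carried by B cell-like cells, which held 76.8% of its UMIs in Hep-ADKTg and 72.7% in Hep-ADKWT. It stood at 95.4 CPM (86.2–105) in 1231 cells of Hep-ADKTg and at 109 CPM (102.1–117) in 2039 cells of Hep-ADKWT, and the intervals overlap. The log2 ratio was −0.20 (−0.37 to −0.02). Of 3 members measured in B cell-like cells, Cxcl12 was past 2-fold higher and none lower, where 6.69% of 9384 genes were past 2-fold higher, 1.24% lower and 7.93% in either direction. A UMI of Cxcr5 was found in 25.5% of the B cell-like cells of Hep-ADKTg and 32.0% of those of Hep-ADKWT, against 0.417% and 1.06% of erythroid-like cells at median depths of 5066 and 8107 UMIs. At 1000 UMIs per cell the shares were 9.03% and 9.99%.

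The B cell-like class was mostly cluster 4 in Hep-ADKTg and cluster 2 in Hep-ADKWT. Within cluster 4 Cxcr5 stood at 94.5 CPM (1222 cells) in Hep-ADKTg and 82.3 CPM (151 cells) in Hep-ADKWT, and within cluster 2 at 132 CPM (9 cells) and 111 CPM (1888 cells). Both clusters thus went the other way from the class as a whole, with overlapping intervals. Hepatocyte RNA was estimated at 17.5% of the class's UMIs in Hep-ADKTg and 3.31% in Hep-ADKWT, and with it subtracted the log2 ratio was 0.03. The direction of Cxcr5 in B cell-like cells was therefore not settled by these libraries. Naive T-like cells carried Cxcr5 at 5.83 CPM (3.46–9.22) in Hep-ADKTg and 6.22 CPM (4.62–8.21) in Hep-ADKWT.

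Cxcl12 (ENSMUSG00000061353, chromosome 6, 117168535–117181367, plus strand), the retention ligand of stromal niches, had its highest level in fibroblast or stellate-like cells. It stood there at 2608 CPM (2507–2711; 2544 UMIs in 195 cells) in Hep-ADKTg and at 2295 CPM (2125–2474; 678 UMIs in 59 cells) in Hep-ADKWT. The log2 ratio was 0.18 (0.06 to 0.31), and neither of the 2 members measured in this class was past 2-fold, where 10.2% of 4569 genes were past 2-fold higher, 2.01% lower and 12.2% in either direction. The mean of each cell's own CPM went the other way, with a log2 ratio of −0.49. Cells with a UMI were 80.0% in Hep-ADKTg and 88.1% in Hep-ADKWT, and 72.4% and 73.7% at 1000 UMIs per cell, so the share did not separate the libraries. Dcn (decorin) marked this class at 12034 and 12101 CPM, and Lrat, the stellate enzyme that esterifies retinol, at 664 and 416 CPM. In mesothelial-like cells Cxcl12 had only 14 and 13 UMIs. Over the joined class it stood at 1589 CPM in Hep-ADKTg and 344 CPM in Hep-ADKWT, a log2 ratio of 2.21 (2.09 to 2.33) that was 0.18 and 1.54 within the 2 clusters apart.

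In vascular endothelial-like cells Cxcl12 was higher in Hep-ADKTg, at 73.8 CPM (60.3–89.4; 104 UMIs in 283 cells), against 12.97 CPM (4.76–28.2; 6 UMIs in 74 cells) in Hep-ADKWT. The log2 ratio was 2.51 (1.34 to 3.99), and Cxcl12 was the 1 member of 2 past 2-fold, where 4.57% of 6041 genes were past 2-fold higher, 1.94% lower and 6.51% in either direction. Both clusters of the class had the higher level in Hep-ADKTg, but in cluster 24 the Hep-ADKWT level rests on 1 UMI. Cluster 34 carried 583 CPM (464–724) in 34 cells of Hep-ADKTg and 42.6 CPM (13.8–99.4) in 18 cells of Hep-ADKWT, and cluster 24 carried 17.3 CPM (22 UMIs) and 2.90 CPM (1 UMI). The excess thus lay mostly in 34 cells of 1 library. Over the class the 5 highest cells held 60.6% of the UMIs in Hep-ADKTg, and the highest cell 21 of the 104. The intervals leave out this spread between cells. Cells with a UMI were 10.6% (7.27–14.8%) in Hep-ADKTg and 5.41% (1.49–13.3%) in Hep-ADKWT, and 3.89% (11 of 283) and 4.11% (3 of 73) at 1000 UMIs per cell, so the shares overlap. Hepatocyte RNA accounted for an estimated 12.7 of the 104 UMIs in Hep-ADKTg and 0.940 of the 6 UMIs in Hep-ADKWT.

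In sinusoidal endothelial-like cells, which line the sinusoids and carried Stab2 and Clec4g, Cxcl12 stood at 26.8 CPM (22.9–31.2) in Hep-ADKTg and 16.6 CPM (13.8–19.9) in Hep-ADKWT, a log2 ratio of 0.69 (0.34 to 1.04). Of 3 members measured in this class, Cxcr6 was past 2-fold lower and none higher, where 2.03% of 10640 genes were past 2-fold lower, 5.55% higher and 7.58% in either direction. An estimated 90.3 of the 169 Cxcl12 UMIs in Hep-ADKTg came from hepatocyte RNA, against 18.2 of 117 in Hep-ADKWT, and with these subtracted the log2 ratio was 0.06. The excess over Hep-ADKWT was also uneven: 39 cells of cluster 7 held 40 of the 169 UMIs in Hep-ADKTg, at 182 CPM, while 1117 cells of that cluster in Hep-ADKWT stood at 15.9 CPM.

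Hepatocyte-like cells themselves carried Cxcl12 at 84.0 CPM (81.0–87.1) in Hep-ADKTg and 99.5 CPM (89.1–111) in Hep-ADKWT, a log2 ratio of −0.24 (−0.41 to −0.08). Of 4 members measured there, Cxcr6 and Cx3cr1 were past 2-fold lower, where 2.65% of 10335 genes were past 2-fold lower, 2.24% higher and 4.9% in either direction. Blood cell classes showed Cxcl12 at low levels that were higher in Hep-ADKTg. B cell-like cells had 10.7 and 3.73 CPM, and T, NK and innate lymphoid-like cells 7.84 and 2.05 CPM. The UMIs expected from hepatocyte RNA alone were 60.7 against 44 counted in B cell-like cells of Hep-ADKTg, and 25.6 against 29 in those of Hep-ADKWT. In T, NK and innate lymphoid-like cells they were 131 against 95 in Hep-ADKTg and 58.1 against 58 in Hep-ADKWT. The estimate thus exceeds the count in both Hep-ADKTg classes, so it is not exact, and the source of these UMIs was not tested.

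Cxcr4 (ENSMUSG00000045382, chromosome 1, 128588199–128592293, minus strand), the receptor for CXCL12, was found in B cells, other lymphocytes, neutrophils and plasma cells. In B cell-like cells it stood at 143 CPM (132–155) in Hep-ADKTg and 153 CPM (144–162) in Hep-ADKWT, and the log2 ratio of −0.09 (−0.24 to 0.05) spans 0. Cxcr4 and Cxcr5 were found together in 8.53% of B cell-like cells in Hep-ADKTg and 14.2% in Hep-ADKWT, where the product of their single shares is 8.66% and 13.1%. The 2 receptors were thus found together about as often as their separate shares give.

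In T, NK and innate lymphoid-like cells Cxcr4 stood at 21.5 CPM (19.0–24.3) in Hep-ADKTg and 16.6 CPM (15.1–18.2) in Hep-ADKWT, a log2 ratio of 0.37 (0.15 to 0.60). Of 7 members measured in this class, Cxcl12 alone was past 2-fold, where 6.89% of 11534 genes were past 2-fold higher, 1.11% lower and 8% in either direction. The cells other than naive T carried the difference: in the remaining T-like cells Cxcr4 stood at 17.1 CPM (142 UMIs) in Hep-ADKTg and 8.45 CPM (134 UMIs) in Hep-ADKWT, a log2 ratio of 1.02 (0.67 to 1.37). These T-like cells were mostly cluster 3 in Hep-ADKTg and clusters 6 and 8 in Hep-ADKWT. Cluster 3 had Cxcr4 at 15.1 CPM (12.3–18.3; 103 UMIs) in Hep-ADKTg and 4.66 CPM (1.27–11.9; 4 UMIs) in Hep-ADKWT, and cluster 18 had 26.6 CPM (18.8–36.6; 38 UMIs) and 13.2 CPM (4.29–30.8; 5 UMIs). The intervals overlap in cluster 18 and not in cluster 3, where the Hep-ADKWT value rests on 4 UMIs. Clusters 6 and 8 had 9.71 and 7.41 CPM in Hep-ADKWT, and held 4 and 2 cells in Hep-ADKTg. In that T-like class Cxcl12, Cxcr4 and Cx3cr1 were past 2-fold higher of 6 members measured, where 6.9% of 10671 genes were past 2-fold higher, 0.965% lower and 7.86% in either direction. Naive T-like cells had 34.7 and 36.6 CPM and NK-like cells 33.5 and 29.1 CPM, and both pairs of intervals overlap. A Cxcr4 UMI was found in 6.22% of the T-like cells other than naive in Hep-ADKTg and 4.31% in Hep-ADKWT, at median depths of 4062 and 5378 UMIs. The share in sinusoidal endothelial-like cells, which should lack it, was 0.184% and 0.545% at median depths of 2584 and 4509 UMIs.

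Neutrophil-like cells, which CXCR4 holds in the marrow and recalls there when they age, had Cxcr4 at 290 CPM (246–340) in Hep-ADKTg and 405 CPM (369–445) in Hep-ADKWT. The log2 ratio was −0.48 (−0.76 to −0.21), the intervals do not overlap, and neither of the 2 members measured was past 2-fold, where 6.53% of 3566 genes were past 2-fold higher, 4.18% lower and 10.7% in either direction. Hepatocyte RNA was estimated at 22.5% of the UMIs of these cells in Hep-ADKTg and 2.84% in Hep-ADKWT, and with it subtracted the log2 ratio was −0.16. Plasmacytoid dendritic-like cells had 27.4 and 46.0 CPM, a log2 ratio of −0.74 (−1.34 to −0.19). Plasma cell-like cells, which CXCR4 brings to CXCL12-rich niches, had 33.4 CPM (41 UMIs in 55 cells) in Hep-ADKTg and 10.2 CPM (96 UMIs in 313 cells) in Hep-ADKWT. That log2 ratio was 1.70 (1.14 to 2.24), opposite in direction to the other 3 members measured in plasma cell-like cells. Cxcr4 was the 1 member past 2-fold higher and Cxcr6, Cxcr3 and Ccr2 were past 2-fold lower, where 2.69% of 8566 genes were past 2-fold higher, 23.3% lower and 26% in either direction. TMM and DESeq2 scaling moved the median gene of this class by 0.55 and 0.56 on the log2 scale. Under TMM scaling the log2 ratios were 2.25 for Cxcr4, −0.50 for Cxcr6, −1.54 for Cxcr3 and −0.76 for Ccr2, so Cxcr6 and Ccr2 were no longer past 2-fold.

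Cxcl16 (ENSMUSG00000018920, chromosome 11, 70453983–70459984, minus strand), the membrane-bound ligand of the sinusoidal wall, was lower in the sinusoidal endothelial-like class of Hep-ADKTg as a whole, but not in each of its clusters. It stood at 245 CPM (233–257; 1543 UMIs in 2179 cells) in Hep-ADKTg and 298 CPM (285–311; 2094 UMIs in 1651 cells) in Hep-ADKWT. The log2 ratio was −0.28 (−0.38 to −0.19), well short of 2-fold. A UMI was found in 41.7% of cells in Hep-ADKTg and 57.2% in Hep-ADKWT, against 0.325% and 0.441% of B cell-like cells at median depths of 3063 and 3474 UMIs, and at 1000 UMIs per cell the shares of 20.8% and 22.2% had overlapping intervals. With hepatocyte RNA subtracted the log2 ratio was −0.05. The class was mostly clusters 5 and 10 in Hep-ADKTg and clusters 7 and 20 in Hep-ADKWT. In cluster 5 Cxcl16 stood at 268 CPM in Hep-ADKTg and 245 CPM in Hep-ADKWT, and in cluster 7 at 205 CPM (39 cells) and 310 CPM (1117 cells). Cluster 10 had 124 and 167 CPM. The clusters thus did not share a direction, and the direction of Cxcl16 in these cells was not settled by these libraries.

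In the monocyte-like class Cxcl16 was lower in Hep-ADKTg. Vascular endothelial-like cells had 179 CPM (158–203) and 203 CPM (164–249), with overlapping intervals. Monocyte-like cells had 89.7 CPM (79.6–100.8) in Hep-ADKTg and 115 CPM (105–125) in Hep-ADKWT, a log2 ratio of −0.35 (−0.57 to −0.14). A cluster led by the complement genes C1qa, C1qb and C1qc, which macrophages express, had the highest Cxcl16 level of the classes compared in both libraries, at 412 CPM (366–461) in 210 cells of Hep-ADKTg and 503 CPM (440–573) in 92 cells of Hep-ADKWT, a log2 ratio of −0.29 (−0.54 to −0.03). The intervals of the 2 levels overlap, and in the cluster's cells without a Kupffer marker UMI, a split made after the values were seen, the log2 ratio was −0.18 (−0.45 to 0.10). Clec4f, the defining marker of Kupffer cells (the resident liver macrophages), was found in only 12.9% and 12.0% of its cells, so the cluster is called by its C1q genes. Mesothelial-like cells had 96.2 and 112 CPM and fibroblast or stellate-like cells 100.5 and 77.9 CPM, both with overlapping intervals. Cholangiocyte-like cells had 61.2 CPM (47.3–77.8; 99 cells) in Hep-ADKTg and 109 CPM (82.9–140; 35 cells) in Hep-ADKWT, a class under the minimum of 50 cells per library for which no ratio was computed.

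**Figure D4:**
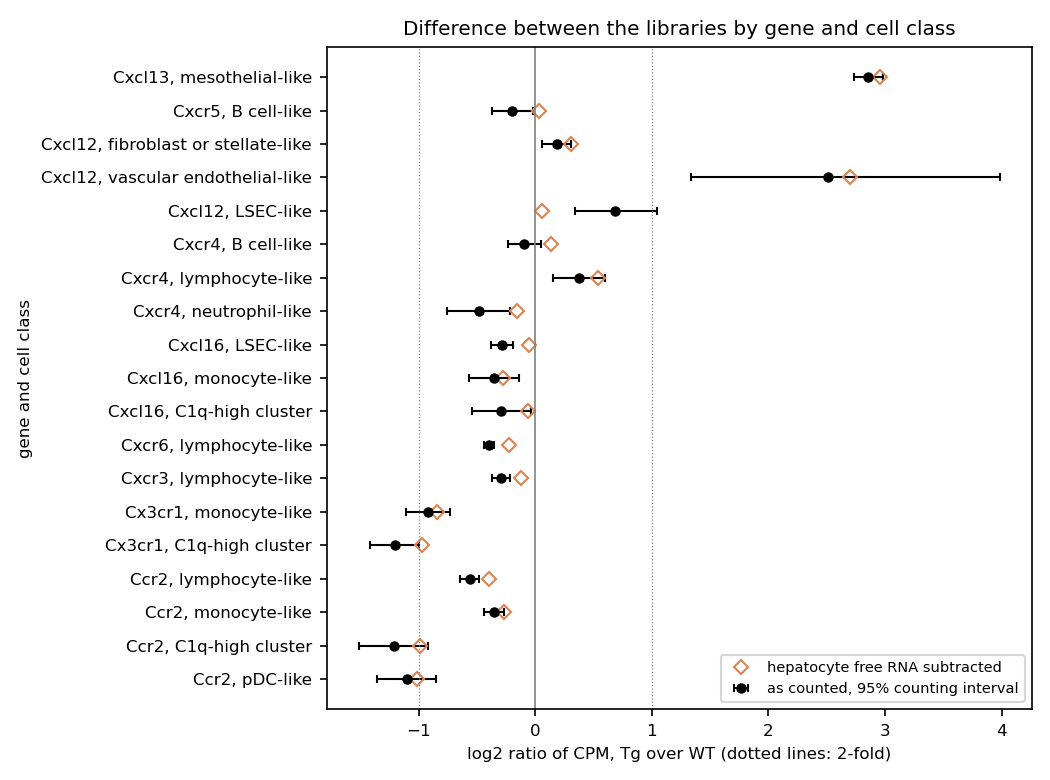
Log2 ratio of CPM, Hep-ADKTg over Hep-ADKWT (x axis, dotted lines at 2-fold), for each gene and cell class (y axis), with 95% counting intervals as bars and the value after subtraction of hepatocyte RNA as open diamonds. Cxcl13 in mesothelial-like cells (2.86) and Cxcl12 in vascular endothelial-like cells (2.51) lie past 2-fold higher, and the diamonds of Cxcr5 in B cell-like cells and of Cxcl16 in sinusoidal endothelial-like cells lie near 0.

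Cxcr6 (ENSMUSG00000048521, chromosome 9, 123806475–123811760, plus strand), the receptor for CXCL16, and Cxcr3 (ENSMUSG00000050232, chromosome X, 101731535–101734269, minus strand) were both lower in the T, NK and innate lymphoid-like cells of Hep-ADKTg. Their levels followed each other over the 32 profiles of 16 classes and subclasses in 2 libraries with a Pearson r of 0.89 on the log2(CPM + 10) scale, a description over profiles that share libraries and depth. Their promoters, from 250 bases before to 50 bases after the start site, are shown because the pair moved together. Both come from RefSeq on build GRCm38.p6, Cxcr6 from chr9:123806227-123806526 on the plus strand and Cxcr3 from chrX:101734098-101734397 on the minus strand, and capitals mark matches to the Runx motif TGTGGT or its reverse complement ACCACA.
Cxcr6 promoter: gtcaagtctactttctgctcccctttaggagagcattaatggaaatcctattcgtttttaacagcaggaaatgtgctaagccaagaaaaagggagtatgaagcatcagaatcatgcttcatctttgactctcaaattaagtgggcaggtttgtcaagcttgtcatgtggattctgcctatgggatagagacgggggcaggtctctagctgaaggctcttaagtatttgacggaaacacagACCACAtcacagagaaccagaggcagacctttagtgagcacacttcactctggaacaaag
Cxcr3 promoter: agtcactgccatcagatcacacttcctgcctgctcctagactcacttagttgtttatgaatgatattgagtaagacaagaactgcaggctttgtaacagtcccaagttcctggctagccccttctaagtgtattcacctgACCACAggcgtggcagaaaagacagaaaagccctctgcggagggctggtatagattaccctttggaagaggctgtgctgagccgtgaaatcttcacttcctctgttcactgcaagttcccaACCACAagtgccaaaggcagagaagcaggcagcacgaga
The match in Cxcr6 begins 10 bases before the start site, and those in Cxcr3 begin 110 bases before and 11 bases after it. The motif is common: 16.8% of 32851 promoters of the same length hold it on either strand, and among the 7 members with a promoter in the table Cx3cr1 holds it as well, 54 bases before its start. On both strands 3 other motifs were searched, the T-box motif GGTGTG (19.0% of promoters, 0 members), the kappaB motif written as GGG, any 5 bases and CC (50.8%, found in Cxcl13, Cxcl12, Cxcr3 and Cx3cr1) and the interferon regulatory factor motif written as GAAA, any 2 bases and GAAA (3.44%, 0 members). No match of one motif shares bases with a match of another in these promoters. The motifs and the one shown were picked after the values were seen, and a match describes letters only.

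Cxcr6 stood at 436 CPM (425–448; 5287 UMIs in 2717 cells) in Hep-ADKTg and 575 CPM (566–583; 16292 UMIs in 4593 cells) in Hep-ADKWT, a log2 ratio of −0.40 (−0.44 to −0.35). A UMI was found in 60.6% of cells in Hep-ADKTg and 71.5% in Hep-ADKWT, against 0.569% and 1.23% of B cell-like cells at median depths of 3063 and 3474 UMIs. At 1000 UMIs per cell the shares were 31.0% (29.2–32.9%) and 39.2% (37.8–40.6%), so the libraries stayed apart at equal depth. With hepatocyte RNA subtracted the log2 ratio was −0.23. In T-like cells other than naive Cxcr6 stood at 573 and 825 CPM, a log2 ratio of −0.52 (−0.57 to −0.48). Within the 2 clusters of that class with over 50 cells in both libraries it was lower in Hep-ADKTg as well, at 616 and 764 CPM in cluster 3 and at 369 and 658 CPM in cluster 18. Type 1 innate lymphoid-like cells had 403 and 550 CPM (log2 ratio −0.45, −0.69 to −0.22), naive T-like cells 115 and 149 CPM (−0.37, −0.55 to −0.20) and NK-like cells 30.5 and 37.2 CPM with overlapping intervals. In the type 1 innate lymphoid-like class the 6 T cell markers summed to 2438 CPM in Hep-ADKTg and 4621 CPM in Hep-ADKWT. The sums were 503 and 730 CPM in NK-like cells, and 3976 and 4199 CPM in naive T-like cells. Ncr1, a marker used to name the class, was found in 92.3% and 66.6% of its cells. The class thus carried T cell transcripts, more in Hep-ADKWT, and its name does not exclude T cells. Their part in its values was not tested. None of the 3 members measured in type 1 innate lymphoid-like cells was past 2-fold, where 3.07% of 7290 genes were past 2-fold higher, 6.84% lower and 9.92% in either direction. None of the 6 members measured in naive T-like cells was, where 4.5% of 9066 genes were higher, 1.28% lower and 5.78% in either direction. Neither of the 2 measured in NK-like cells was, where 3.79% of 3460 genes were higher, 2.54% lower and 6.33% in either direction.

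Cxcr3 stood at 159 CPM (152–167; 1930 UMIs) in the T, NK and innate lymphoid-like cells of Hep-ADKTg and 195 CPM (190–200.2; 5530 UMIs) in those of Hep-ADKWT, a log2 ratio of −0.29 (−0.37 to −0.22). Cells with a UMI were 43.4% in Hep-ADKTg and 57.8% in Hep-ADKWT, against 0.487% and 1.13% of B cell-like cells, and at 1000 UMIs per cell 13.9% (12.5–15.3%) and 18.0% (16.9–19.2%). In T-like cells other than naive the levels were 198 and 258 CPM, a log2 ratio of −0.38 (−0.47 to −0.30), with 206 and 288 CPM in cluster 3 and 158 and 206 CPM in cluster 18. Type 1 innate lymphoid-like cells, with the T cell marker sums given for Cxcr6, had 190 and 209 CPM, and that log2 ratio of −0.14 (−0.50 to 0.20) spans 0. Cxcr6 and Cxcr3 were found together in 34.7% of the class in Hep-ADKTg and 50.8% in Hep-ADKWT, above the 26.3% and 41.3% that the product of their shares gives. The same cells thus carried both receptors more often than that product in both libraries, a count that pools T, NK and innate lymphoid-like cells of unequal depth. In T-like cells other than naive the joint shares were 42.2% in Hep-ADKTg and 67.0% in Hep-ADKWT, beside products of 36.5% and 65.1%.

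**Figure D5:**
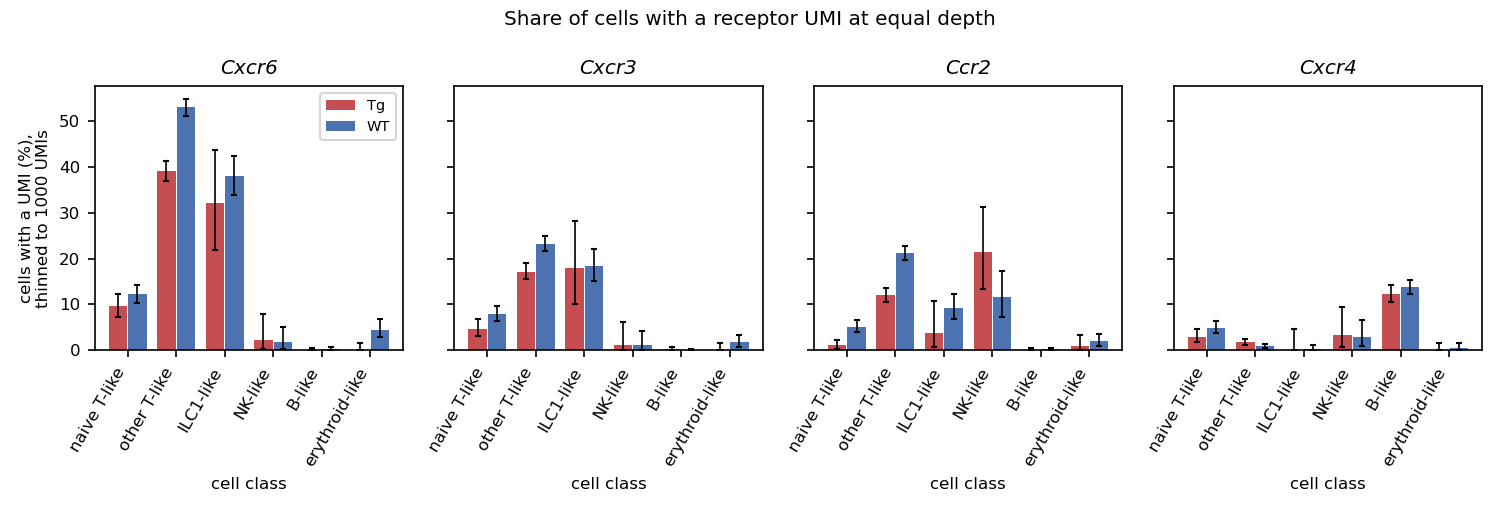
Share of cells with a UMI (percent, y axis) after every cell was thinned to 1000 UMIs, for Cxcr6, Cxcr3, Ccr2 and Cxcr4 in lymphocyte classes and in erythroid-like cells (x axis), with Hep-ADKTg left of Hep-ADKWT and exact 95% binomial intervals. In T-like cells other than naive Cxcr6 was found in 39.0% of cells in Hep-ADKTg and 53.0% in Hep-ADKWT, and Ccr2 in 12.0% and 21.1%.

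Cxcr6 and Cxcr3 UMIs also turned up in classes of other cells, some of which had lower levels in Hep-ADKTg. Monocyte-like cells had Cxcr6 at 33.0 CPM (104 UMIs) in Hep-ADKTg and 101.4 CPM (425 UMIs) in Hep-ADKWT, a log2 ratio of −1.62 (−1.94 to −1.31). Cxcr6 was the 1 member of 6 past 2-fold in this class, where 2.44% of 8877 genes were past 2-fold lower, 3.77% higher and 6.22% in either direction. Plasma cell-like cells had Cxcr6 at 45.6 and 94.5 CPM and Cxcr3 at 13.8 and 58.8 CPM. Plasmacytoid dendritic-like cells had Cxcr6 at 7.08 and 35.6 CPM. Not every class did so: neutrophil-like cells had Cxcr6 at 36.5 CPM (22.0–57.0) in Hep-ADKTg and 35.7 CPM (25.4–48.8) in Hep-ADKWT, and the C1q-high cluster had Cxcr3 at 15.04 CPM (11 UMIs) and 11.1 CPM (5 UMIs). Erythroid-like cells had Cxcr6 at 6.71 CPM (8 UMIs) and 71.0 CPM (276 UMIs in 65 cells), and all 3 members measured in them were past 2-fold lower, where 50.5% of 2644 genes were past 2-fold lower, 10.1% higher and 60.6% in either direction. The summed level of the 6 T cell markers moved with these values: it was 364 and 961 CPM in monocyte-like cells, 512 and 1179 CPM in plasma cell-like cells, 159 and 453 CPM in plasmacytoid dendritic-like cells and 78.9 and 686 CPM in erythroid-like cells, with all 6 markers found in each. Its part in the Cxcr6 and Cxcr3 values of these classes was not tested.

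Cx3cr1 (ENSMUSG00000052336, chromosome 9, 119901616–120069879, minus strand), the fractalkine receptor, was lower in the macrophages and monocytes of Hep-ADKTg. In the C1q-high cluster it stood at 440 CPM (394–491; 322 UMIs) in Hep-ADKTg and 1015 CPM (924–1113; 456 UMIs) in Hep-ADKWT, a log2 ratio of −1.21 (−1.42 to −0.996). Of 5 members measured in this cluster, Cxcr6, Cx3cr1 and Ccr2 were past 2-fold lower and none higher, where 2.05% of 3604 genes were past 2-fold lower, 7.63% higher and 9.68% in either direction. The summed level of the 6 T cell markers in this cluster was 397 CPM in Hep-ADKTg and 962 CPM in Hep-ADKWT, and its part in these values was not tested. A UMI was found in 35.7% of its cells in Hep-ADKTg and 57.6% in Hep-ADKWT, and in 28.9% (21.6–37.1%) and 51.5% (39.0–63.8%) at 1000 UMIs per cell. B cell-like cells, which should lack it, had a share of 0.0812% and 0.0490%.

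The C1q-high cluster mixed cells with and without Kupffer markers, in unequal shares. Cells with a UMI of Clec4f, Vsig4, Timd4, Cd5l or Marco were 56 of 210 (26.7%) in Hep-ADKTg and 16 of 92 (17.4%) in Hep-ADKWT, a split made after the values were seen. In these cells Cx3cr1 stood at 114 CPM (67.6–180; 18 UMIs) and 1013 CPM (757–1328; 52 UMIs), and in the cells without such a UMI at 530 CPM (472–593; 304 UMIs) and 1015 CPM (919–1119; 404 UMIs). The log2 ratio in the cells without such a UMI was −0.94 (−1.16 to −0.72). The difference was thus found in both subsets, but the split does not match the cells of the 2 libraries. Each of the 5 markers stood higher over the whole cluster in Hep-ADKTg, such as Cd5l at 574 and 114 CPM and Clec4f at 309 and 82.4 CPM. The cells without such a UMI had median depths of 2079 and 3460 UMIs. The part of these differences in the Cx3cr1 values was not tested.

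Monocyte-like cells had Cx3cr1 at 100.2 CPM (89.5–112) in Hep-ADKTg and 190 CPM (177–203) in Hep-ADKWT, a log2 ratio of −0.92 (−1.11 to −0.73). At a finer clustering (resolution 2.0) monocyte-like cells (142 and 170 cells) stood apart from type 1 conventional dendritic-like cells (200 and 171 cells). Cx3cr1 stood at 225 and 329 CPM in the first (log2 ratio −0.55, −0.76 to −0.34) and at 23.2 and 63.9 CPM in the second (−1.46, −1.92 to −1.02). In the finer monocyte-like cells Cxcr6 was past 2-fold lower of 5 members measured, where 2.46% of 6296 genes were past 2-fold lower, 2.81% higher and 5.27% in either direction. The summed level of the 6 T cell markers there was 186 CPM in Hep-ADKTg and 503 CPM in Hep-ADKWT. In the dendritic-like cells Cxcr6 and Cx3cr1 were past 2-fold lower of 6 members measured, where 3.22% of 7939 genes were past 2-fold lower, 3.97% higher and 7.19% in either direction. The T cell marker sum there was 451 and 1242 CPM, and the dendritic markers moved as well: Xcr1, a chemokine receptor of these cells, stood at 279 CPM (42.0% of cells) in Hep-ADKTg and 122 CPM (18.1%) in Hep-ADKWT, and Clec9a, a lectin receptor, at 125 and 61.2 CPM. The part of these markers in the values of both finer classes was not tested. NK-like cells, where the receptor marks mature cells, had 82.3 CPM (27 UMIs) and 131 CPM (113 UMIs), a log2 ratio of −0.67 (−1.34 to −0.06). T-like cells other than naive went the other way, with Cx3cr1 past 2-fold higher in Hep-ADKTg. It was found there in only 19 of 1976 cells in Hep-ADKTg and 13 of 2712 cells in Hep-ADKWT. Mesothelial-like cells had 0 UMIs in Hep-ADKTg and 35 UMIs in Hep-ADKWT.

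Ccr2 (ENSMUSG00000049103, chromosome 9, 124101950–124113557, plus strand), the monocyte exit receptor, was lower in Hep-ADKTg in each class named here except NK-like cells. Monocyte-like cells had 550 CPM (525–577) in Hep-ADKTg and 702 CPM (677–728) in Hep-ADKWT, a log2 ratio of −0.35 (−0.44 to −0.26). At the finer clustering monocyte-like cells had 948 and 1033 CPM (−0.12, −0.23 to −0.02) and type 1 conventional dendritic-like cells 320.5 and 415 CPM (−0.37, −0.51 to −0.24). The ratio of the finer monocyte-like cells was thus smaller than that of the coarse class. The 7 hepatocyte markers summed to 3732 CPM in the finer monocyte-like cells of Hep-ADKTg and 762 CPM in those of Hep-ADKWT. Their part in this small ratio was not tested. In the C1q-high cluster Ccr2 stood at 222 CPM (189–258) and 514 CPM (450–585), a log2 ratio of −1.22 (−1.51 to −0.92), and at −1.06 (−1.36 to −0.76) in its cells without a Kupffer marker UMI.

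T, NK and innate lymphoid-like cells had Ccr2 at 118 CPM (112–125) in Hep-ADKTg and 175 CPM (170–180) in Hep-ADKWT, a log2 ratio of −0.56 (−0.65 to −0.48). Cells with a UMI were 29.4% and 44.3%, against 0.325% and 0.687% of B cell-like cells, and 9.66% (8.54–10.9%) and 15.5% (14.4–16.5%) at 1000 UMIs per cell. T-like cells other than naive had 149 and 250 CPM, a log2 ratio of −0.75 (−0.84 to −0.66), with 165 and 220 CPM in cluster 3 and 74.3 and 217 CPM in cluster 18. Type 1 innate lymphoid-like cells had 72.5 and 124 CPM (−0.77, −1.37 to −0.23) and naive T-like cells 30.5 and 47.1 CPM (−0.63, −0.97 to −0.30). The part of the unequal T cell marker sums of the first class, given for Cxcr6, was not tested. NK-like cells had 241 and 206 CPM, and that log2 ratio of 0.23 (−0.17 to 0.62) spans 0. Plasmacytoid dendritic-like cells had 128 CPM (107.5–150) and 273 CPM (258–289), a log2 ratio of −1.10 (−1.36 to −0.85), and Cxcr6 and Ccr2 were past 2-fold lower of 4 members measured there, where 3.81% of 8089 genes were past 2-fold lower, 2.84% higher and 6.65% in either direction.

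The other genes of these pathways came from lists that hold the remaining ligands of the receptors, decoy receptors, proteases that process the ligands, receptor signalling genes, genes of egress and homing, and endothelial adhesion genes. In mesothelial-like cells, where 2.21% of all genes were past 2-fold higher, 2 of 2 measured ligands were: Ccl2, the ligand of CCR2, at 140 and 9.92 CPM (log2 ratio 3.82, 3.06 to 4.66) and Cxcl10, a ligand of CXCR3, at 129 and 18.1 CPM (2.84, 2.22 to 3.48). In vascular endothelial-like cells Cxcl10 had 126 UMIs in Hep-ADKTg and 1 UMI in Hep-ADKWT, a log2 ratio of 5.37 (2.86 to 10.7), where 4.57% of all genes were past 2-fold higher. Of 3 measured decoy receptors there, 2 were past 2-fold lower, as 1.94% of all genes were: Ackr3, which scavenges CXCL12, at 44.0 and 149 CPM (−1.76, −2.28 to −1.25) and Ackr4, which scavenges CC chemokines, at 53.9 and 121 CPM (−1.17, −1.68 to −0.64). The makeup of this vascular class differed: cluster 34 was 34 of 283 cells in Hep-ADKTg and 18 of 74 in Hep-ADKWT. Its part in these values was not tested. In sinusoidal endothelial-like cells all 4 decoy receptors had a ratio below 0 and none was past 2-fold, with a list median of −0.66 beside −0.13 over all genes. The proteases did not pass 2-fold there: Dpp4, which clips CXCL10 and CXCL12, stood at 545 and 682 CPM (−0.32, −0.39 to −0.26), and Adam10, which sheds CXCL16, at 163 and 192 CPM (−0.24, −0.36 to −0.12). Of 15 measured egress and homing genes in the same cells, 8 were past 2-fold lower and none higher, beside 2.03% lower and 5.55% higher over all genes. The 6 with the lowest ratios, all leukocyte genes for adhesion or retention, were Itga4 (3.81 and 16.6 CPM), Cd69 (3.65 and 15.2 CPM), Cd44, Itgal, Selplg and Itgb2, with log2 ratios of −2.13 to −1.75. Of 21 measured receptor signalling genes 5 were past 2-fold lower, beside the same 2.03% over all genes: Rac2, Dock2, Coro1a, Rgs1 and Fermt3, with log2 ratios of −1.93 to −1.26. The summed level of T cell markers there was 27.3 CPM in Hep-ADKTg and 140 CPM in Hep-ADKWT, and its part in these values was not tested.

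In T, NK and innate lymphoid-like cells none of 49 listed genes with at least 50 UMIs was past 2-fold, beside 8% of all genes, with a median of −0.16 for 25 receptor signalling genes and −0.24 for 16 egress and homing genes, beside −0.10 over all genes. In B cell-like cells none of 46 was, beside 7.93% of all genes, with medians of −0.31 and −0.15 for those lists beside −0.15 over all genes. In monocyte-like cells, where 2.44% of all genes were past 2-fold lower, 3 of 3 measured ligands were, Cxcl9, Cxcl10 and Ccl2, the last at 5.39 and 14.1 CPM (−1.39, −2.26 to −0.59), while none of 16 egress and homing genes was.

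The genes whose levels were most like each member over the 32 profiles were ranked by Pearson r of log2(CPM + 10). Some of them, such as Upk3b and Pax5, are markers used to name the class that carried the member. For Cxcl13 the most alike genes were Lamc3 (0.98), Nkain4 (0.96) and Upk3b (0.95), and for Cxcr5 they were Klhl14 (0.94), Ffar1 (0.94) and Pax5 (0.94). For Cxcl12 they were Plekha6, Ank3 and Tmem56 (0.95 to 0.96), and for Cxcl16 Hpgd, Acvrl1 and Stard9 (0.96 to 0.97). Cxcr6 was most like Cd226 (0.98), Cd3g (0.97) and Atp8a2 (0.96), and Cxcr3 like Cd226 (0.93), Cd7 (0.93) and Lat (0.91), so Cd226, an activating receptor of T and NK cells, led both lists. Genes most like Cxcr4 included AB124611 and Xylt1 (0.90 to 0.91). Cx3cr1 was most like Fcgr1 (0.87), Ms4a6c (0.86) and Clec4b1 (0.85), and those most like Ccr2 included Dtl (0.86) and Otulinl (0.86). The rankings depend on the CPM added: on the log2(CPM + 1) scale Klhl14 and Ffar1 left the Cxcr5 list, which Pax5 led at 0.84.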

How the data were processed

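The deposited values are whole-number UMI counts per gene and barcode, 1 matrix per library, as deposited by the authors. Per the submitters' processing notes, Cell Ranger 6.1.2 and the mouse build GRCm38 (mm10) were used, and R 4.1.0 and Seurat 4.0.2 are named. The matrix headers name another Cell Ranger release. The series' design text names an ambient RNA correction, but the deposited counts are whole numbers and were treated as uncorrected.

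Barcodes with at least 500 UMIs, 200 genes and at most 20% mitochondrial UMIs were kept. The automatic threshold of Scrublet, a doublet caller, marked 0 cells in each library, so cells with a doublet score above 0.2 were left out instead, 404 in Hep-ADKTg and 479 in Hep-ADKWT. Cells of both libraries were clustered together (scanpy 1.11.5, Leiden resolution 1.0) without the 9 genes, and clusters were named from fixed marker lists where at least 3 markers were enriched and the leading genes did not go against the name. There was 1 library per genotype and no replicate. UMIs were summed per class and library and divided by the class total to give CPM. Intervals are exact Poisson for levels, exact Clopper-Pearson for shares and exact conditional binomial for ratios, all at 95%. A gene with 0 UMIs in 1 library was set at a floor of 3 UMIs per library. Free RNA was estimated from 7 hepatocyte markers. Scaling alternatives used edgeR 4.0.16 (TMM) and DESeq2 1.42.0 (size factors) on the UMI counts, with no test. On simulated counts, 4-fold changes were past 2-fold for 100% of changed genes in the lymphocyte class (11534 genes), 99.5% in the mesothelial class (7027 genes) and 100% in the sinusoidal class (10640 genes). Of unchanged genes 0.115%, 0.747% and 0.0670% were past 2-fold. The simulated counts had Poisson error only, with no spread between cells, clusters or libraries. They therefore check the arithmetic and not how far real libraries differ.

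All 9 members are named, with the 3 most alike genes each and, from each pathway list, up to 6 genes past 2-fold in a class described; a few genes that this rule names are not reported here. The members, the lists and the naming rule were chosen with earlier results of these data known. The doublet score cut, the separate stellate and mesothelial values, the values without the highest cell, the cut at 20 Cxcl13 UMIs, the classes at resolution 2.0, the split of the C1q-high cluster and the promoter motifs were chosen after seeing the data. Promoters are from RefSeq (GRCm38.p6) and cover 7 of the 9 genes; those of Cxcr5 and Cxcl16 were not used here.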

Additional observations from a re-analysis of the deposited data

How the results depend on the processing

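Of 15 primary log2 ratios, 13 kept their sign under every alternative that gave a value; the exceptions were Cxcr5 and Cxcr4 in B cell-like cells. Of 31 further ratios, 23 did. No paired analysis was possible because each genotype had 1 library. No cause of a change was tested. With hepatocyte RNA subtracted, Cxcr5 in B cell-like cells was 0.0323 (the sign turned), Cxcr4 there 0.14, Cxcl12 in sinusoidal endothelial-like cells 0.0616, Cxcl16 there −0.0526, and Cxcr6, Cxcr3 and Ccr2 in the joined lymphocyte class −0.23, −0.12 and −0.40. Under TMM scaling Cxcl16 in sinusoidal cells was −0.16, and Cxcr6, Cxcr3 and Ccr2 in lymphocytes were −0.31, −0.21 and −0.48. Under DESeq2 size factors these 4 were −0.15, −0.30, −0.20 and −0.47, and Cxcr4 in B cell-like cells was 0.0531. These scalings moved the median gene by 0.13 and 0.13 in sinusoidal cells, 0.14 and 0.15 in B cell-like cells, −0.13 and −0.14 in stellate-like cells and 0.18 and 0.20 in neutrophil-like cells. With totals that left out hepatocyte-enriched genes Cxcr6 in lymphocytes was −0.35.

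Thinned to 1000 UMIs per cell, Cxcl12 was 1.25 in the joined stromal class and 1.32 in vascular cells (29 and 3 UMIs), Cxcl16 −0.10 in sinusoidal cells, and Cxcr4, Cxcr6, Cxcr3 and Ccr2 0.0806, −0.49, −0.42 and −0.75 in lymphocytes. Ccr2 in plasma cell-like cells turned to 1.37 on 4 and 9 UMIs. Ratios of the shares of cells with a UMI were then −0.42 for Cxcl13 and 1.499 for Cxcl12 in the joined class, −0.0804 for Cxcl12 in vascular cells (0.97 before thinning), −0.10 for Cxcl16, −0.15 for Cxcr5 and −0.34 for Cxcr6. As a mean over cells, Cxcl13 and Cxcl12 in the joined class were 2.03 and 0.70, Cxcl12 in stellate-like cells turned to −0.49, Cxcl16 in sinusoidal cells was −0.40 and Cxcr6 in lymphocytes −0.45. In mesothelial-like cells alone Cxcl13 was 2.86 and Cxcl12 1.54, and in stellate-like cells alone Cxcl12 was 0.18. At resolution 2.0 Cxcl13 in the joined class was 2.52, Cxcl12 in sinusoidal cells 1.12, and Cx3cr1 and Ccr2 in monocyte-like cells −0.55 and −0.12. Cxcl12 in sinusoidal cells was 1.11 at resolution 0.5 and 1.21 with doublets kept, and 2.34 in the joined class at a minimum of 1000 UMIs per cell.

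In lymphocytes with strict markers Cxcr4 was 3.18 (61 and 1 UMIs), Cxcr6 −0.52, Cxcr3 −0.79, Ccr2 −0.41, and Cx3cr1 turned to 0.83 (24 and 2 UMIs). Alternatives with under 50 cells in a library gave no value, a minimum applied to alternatives after values were seen: 39 results under strict markers and 2 each under 5 other alternatives. Among them were opposite directions on few UMIs, Cxcl16 in sinusoidal cells (41 and 1), Cxcl16 in the C1q-high cluster (28 and 1) and Cxcr5 in B cell-like cells (48 and 3).

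With at least 1 UMI in each library, genes past 2-fold numbered 2877 in the joined class, 2256 mesothelial, 3133 stellate, 2339 vascular, 2329 sinusoidal, 2325 monocyte, 2610 C1q-high, 2297 B and 2882 lymphocyte. With at least 200 UMIs they numbered 344, 64, 134, 93, 354, 191, 81, 309 and 473 in that order. Pathway genes past 2-fold with at least 1 UMI in each library numbered 21, 14, 25 and 12 in the first 4 of these classes, and 8, 3 and 2 in the C1q-high, B and lymphocyte classes. Depth is limited in small classes: in Hep-ADKWT, stellate-like cells numbered 59, vascular 74, C1q-high 92 and mesothelial 136, and in Hep-ADKTg plasma cell-like cells numbered 55 and type 1 innate lymphoid-like cells 78.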

Other observations

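Among mesothelial-like cells, those with at least 20 Cxcl13 UMIs had Ccl2 at 356 CPM in Hep-ADKTg and 129 CPM in Hep-ADKWT, while the other cells had 102.1 and 1.25 CPM. These values rest on 34 UMIs in 7 cells and 15 UMIs in 4 cells, and on 55 UMIs in 81 cells and 2 UMIs in 132 cells. In Hep-ADKTg the Ccl2 of this class was thus found beyond the Cxcl13-high cells. Stellate-like cells, of 5 measured adhesion genes, had Vcam1, an integrin ligand, at 196 and 64.3 CPM (log2 ratio 1.61, 0.92 to 2.37) and Pecam1, an endothelial junction gene, at 154 and 57.5 CPM (1.42, 0.69 to 2.24), both past 2-fold higher in Hep-ADKTg, as were 10.2% of all genes in that class. Coro1a and Rac2, leukocyte cytoskeleton genes, were lower there at 22.6 and 271 CPM and at 37.9 and 257 CPM. The summed level of the 6 T cell markers in stellate-like cells was 116 CPM in Hep-ADKTg and 873 CPM in Hep-ADKWT, and its part in these values was not tested.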
